A study of Mus musculus with 6 samples.

Results

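The respiratory chain genes were taken by symbol from a table of 57180 gene rows: those whose names begin with Nduf followed by a, b, c, s or v, the names Sdha to Sdhd, those beginning with Uqcr, Atp5, or Cox4 to Cox8 with a following a, b or c, and mt-Nd, mt-Co, mt-Cytb and mt-Atp. The pattern took 113 rows, of which 100 lie in the nucleus and 13 are carried by mitochondrial DNA, and 15 names marked as pseudogenes were left out. The RNA came from dorsal root ganglia, which hold the cell bodies of sensory neurons, at spinal levels T8 to L2 of wild-type (WT) mice. The comparison asks how sensory ganglia change after renal injury. There were 3 mice with renal ischemia-reperfusion (I/R) and 3 sham-operated mice, each with 1 library. In I/R mice a clamp closed the pedicle of the left kidney for 28 min and was released, and the right kidney was taken out. Sham mice had the same surgery and Zoletil anesthesia without the clamp, and the labels do not state the right kidney's removal separately for them. All ganglia were taken 24 h after surgery, so each animal in both groups had undergone anesthesia and flank surgery. Age, sex and strain are not in the labels.

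The respiratory chain passes electrons from NADH and succinate to oxygen through complexes I to IV and pumps protons across the inner mitochondrial membrane, and ATP synthase uses the proton gradient to make ATP. Mitochondrial DNA encodes core membrane subunits of complexes I, III and IV and of ATP synthase, while the nucleus encodes the other subunits, all of complex II and the assembly factors, so the complexes need both genomes. Sensory neurons carry long axons and fire repeatedly, and they draw much of their ATP from this chain.

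The libraries held 19092650 to 22010227 expected counts each, where an expected count is an estimated number of reads per gene that need not be whole. Summed levels of 9 sensory neuron markers lay at 12591 to 13686 CPM (counts scaled to a common library total by the trimmed mean of M-values, TMM) in I/R libraries and 11763 to 13224 CPM in sham libraries, so the tissue label had its markers. Sham 1 and sham 3 stood apart in skeletal muscle transcripts: the 10 muscle markers summed to 6.67, 12.3 and 9.49 CPM in I/R libraries against 473, 16.2 and 246 CPM in sham libraries. Summed fibroblast and meningeal markers were 339 to 398 CPM in I/R and 667 to 809 CPM in sham libraries, and red cell markers 52.8 to 86.6 CPM in I/R and 181 to 271 CPM in sham libraries. All 6 fibroblast and meningeal markers and all 5 red cell markers passed the test below with lower values in I/R, and 0 of the 5 Schwann cell, 4 endothelial or 5 macrophage markers passed. Of the 5 satellite glia markers, Fabp7 passed at -0.99 on the log2 scale, while Kcnj10 and Apoe had -0.25 and -0.21 and Glul and Cdh19 had 0.32 and 0.35. The part of these cell types in the members' values was not tested. The 6 adipocyte markers, which include brown fat genes, summed to 2.19 to 3.26 CPM in I/R and 3.73 to 5.0 CPM in sham libraries, and Fabp4 passed with lower values in I/R. I/R 1 and sham 3 also had higher levels of short transcripts than the other libraries, and I/R 3 had lower ones, as described below with the genes they touch.

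No respiratory chain gene kept by the filter on low counts passed the test between I/R and sham ganglia. With edgeR's quasi-likelihood test and Benjamini-Hochberg adjustment over all 16346 genes kept by that filter, 188 genes had an adjusted p under 0.05, which is 1.15% of those tested, and 0 of the 104 members tested were among them. DESeq2 and limma-voom also called 0 members. At an unadjusted p under 0.05 edgeR and limma-voom each marked 1 member, Cox7a1, and DESeq2 marked 2, Cox7a1 and mt-Atp6, while 10.5% of all genes had such an edgeR p. The 3 I/R levels lay outside the 3 sham levels for 2 members, Sdha and Cox7a1, both lower in I/R, while 17.1% of all genes were separated in this way. The lowest adjusted p of any member was 0.247.

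Among the 91 nuclear members tested, 86 had a fold change below 0 on the log2 scale, and the median of I/R over sham was -0.19 beside a median of 0.000126 over all genes. The 5 above 0 were Ndufa10, Ndufaf6, Uqcrc1, Uqcrfs1 and Cox5a, and the values ran between -1.38 and 0.15. The median of the nuclear members was -0.51 without I/R 1, -0.02 without I/R 3 and -0.0048 without sham 3, so single libraries set its size. The count below 0 was 91 of 92 without I/R 1, 56 of 92 without I/R 3 and 49 of 91 without sham 3, and with each library's muscle level as a covariate it was 55 of 91 with a median of -0.03. Muscle markers summed higher in every sham library than in every I/R library, so the covariate fit cannot separate muscle level from group. The 95% interval of the fold change stayed within a 2-fold change either way for 83 of the 91, and within a 1.5-fold change for 31. The median standard error was 0.242 for nuclear members and 0.14 over all genes, so the members were measured less tightly between mice than the usual gene. The 13 mitochondrially encoded genes had 8 fold changes above 0 and 5 below, a median of 0.06 and a range of -0.39 to 0.98. Their median was -0.11 without I/R 1, -0.05 without sham 1, -0.09 without sham 2 and 0.33 without sham 3. In RNA from whole ganglia, fewer cells of a type and less RNA per cell cannot be told apart.

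**Figure D1:**
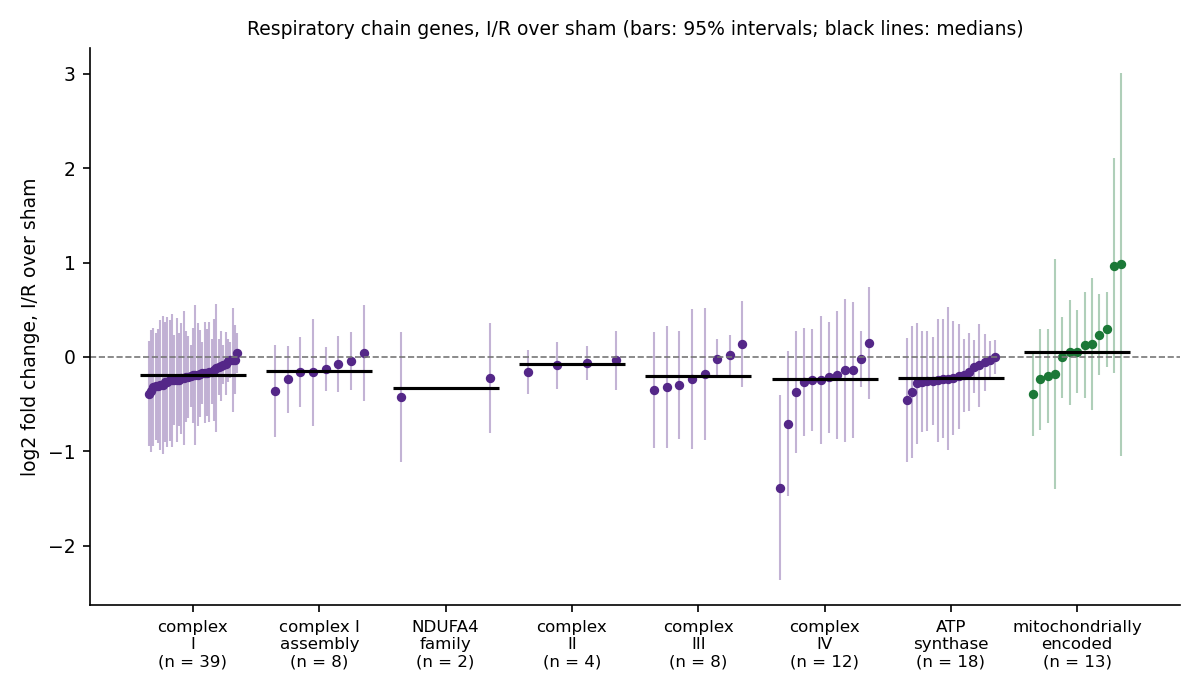
The plot of fold changes by complex shows each tested gene as a point on the log2 scale of I/R over sham, with its 95% interval as a thin line and the median of each group as a black line. Most nuclear genes (purple) sit a little below 0 with intervals that cross it, the lowest point in complex IV is Cox7a1 at -1.38, and the 2 highest mitochondrially encoded genes (green) are mt-Co2 and mt-Co3.

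Levels within the chain differed far more between genes than between groups. As TPM (the count per base of gene, scaled to the same total in every library and computed here with the gene lengths of the deposited table), the mean over the 6 libraries was 8710 for mt-Co1, 3020 for mt-Cytb, 2400 for mt-Nd1 and 1580 for mt-Nd4. These are levels of the rows as deposited. The mt-Co2, mt-Co3 and mt-Atp6 rows had 42.4, 223 and 368 TPM, but their near-identical nuclear copies, described below, held 6218, 6185 and 2549 TPM. The order of the mitochondrially encoded genes therefore differs when the copies are counted. Among nuclear members the highest level was 1430 TPM for Atp5f1b, the catalytic beta subunit of ATP synthase, followed by 911 for Ndufa4, 894 for Atp5f1a and 805 for Cox6a1. Median TPM was 156 for the 42 nuclear rows of complex I, 179 for the 4 of complex II, 265 for the 8 of complex III, 251 for the 17 of complex IV and 271 for the 19 of ATP synthase. The 8 assembly factors of complex I, which help to build the complex and are not part of it, lay lower with a median of 32.9 TPM. The filter on low counts left out 9 nuclear rows: Cox6a2, Cox6c2, Cox7b2, Cox8b, Cox8c, Ndufa11b, Ndufb11b, Ndufs6b and a second row named Atp5po.

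Nuclear and mitochondrial transcripts varied between mice of the same group by more than the groups differed. The nuclear members summed to 10007, 7751 and 6647 CPM in I/R libraries and 8396, 7841 and 10282 CPM in sham libraries. The mitochondrially encoded members summed to 12378, 8875 and 10776 CPM in I/R libraries and 8455, 7560 and 12837 CPM in sham libraries. Both sums were highest in I/R 1 and sham 3, and the groups overlapped on each. As a share of all counts, mitochondrially encoded members took 0.876% to 1.24% of I/R libraries and 0.751% to 1.31% of sham libraries. Together with the near-identical nuclear copies described below, the share was 1.227% to 1.906% in I/R and 1.095% to 1.965% in sham libraries.

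The ratio of mitochondrial to nuclear counts within a library cancels the library's depth. It was 1.24, 1.15 and 1.62 in I/R libraries and 1.01, 0.964 and 1.25 in sham libraries, a difference in mean log2 ratio of 0.31 with SDs of 0.263 in I/R and 0.20 in sham (n = 3 each). The highest ratio was in I/R 3, and sham 3 lay above I/R 1 and I/R 2, so the groups overlapped. On TPM the ratio was 0.919, 0.944 and 1.37 in I/R and 0.811, 0.795 and 0.925 in sham libraries, with sham 3 inside the I/R range. The difference in mean log2 ratio was 0.16 without I/R 3 and 0.42 without sham 3. It was 0.23 when the nuclear sum held members of 1000 bases or more, and 0.44 when it held members under 1000 bases.

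**Figure D2:**
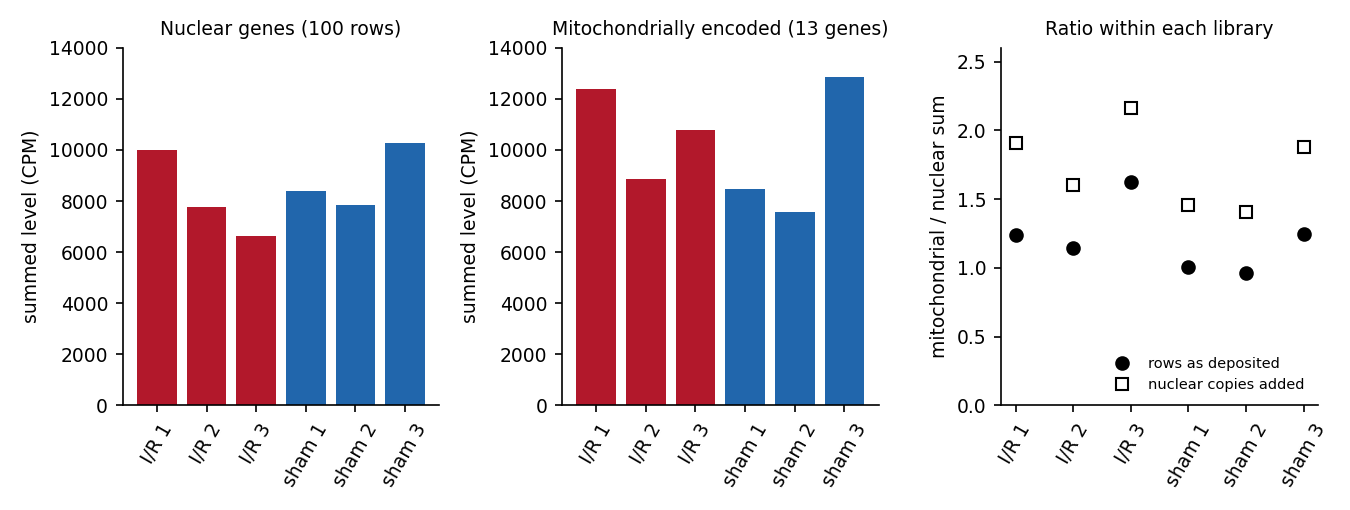
The bar charts show the summed level of nuclear and of mitochondrially encoded members in CPM for each library, with I/R in red and sham in blue, and the right panel shows the ratio of the sums with and without the nuclear copies of mitochondrial genes described below. I/R 1 and sham 3 hold the highest bars in both charts, and the ratio is highest in I/R 3 at 1.62.

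Nuclear members moved up and down together from library to library, and short transcripts did so most. The log2 deviation from the gene's mean over 6 libraries had a median over the 90 nuclear members with a mean of at least 1 CPM of 0.38, -0.18 and -0.55 in I/R 1, 2 and 3, and of -0.0049, -0.11 and 0.50 in sham 1, 2 and 3. In I/R 1 and sham 3, 85 and 87 of the 90 lay above their mean, and in I/R 3 there were 3. For the 31 members under 600 bases the medians were 0.47, -0.25 and -0.71 in I/R libraries and -0.01, -0.16 and 0.63 in sham libraries. For the 8 members of 2000 bases or more they were 0.04, -0.03 and -0.03 in I/R libraries and 0.02, -0.06 and 0.13 in sham libraries.

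Genes outside the chain showed the same order of libraries under 600 bases. The 214 other genes under 600 bases had median deviations of 0.36, -0.14 and -0.50 in I/R libraries and -0.01, -0.09 and 0.45 in sham libraries, and the 10586 other genes of 2000 bases or more had -0.04, 0.02 and 0.06 in I/R libraries and 0.01, 0.02 and -0.04 in sham libraries. From 600 to under 1000 bases, nuclear members had medians of 0.40, -0.57 and 0.52 in I/R 1, I/R 3 and sham 3. Other genes of those lengths had 0.25, -0.32 and 0.29. From 1000 to under 2000 bases the medians were 0.20, -0.26 and 0.25 for nuclear members and 0.09, -0.11 and 0.07 for other genes. In these 3 libraries nuclear members thus deviated further than other genes in each class under 2000 bases. The tested nuclear members had a median length of 742 bases. When the trend of level on gene length was removed from each library, the median fold change of the nuclear members was -0.07, with 18 above 0 and 73 below, 4 (Atp5f1e, Cox5a, Cox7a1 and Ndufs6) had an unadjusted p under 0.05, while 13% of all genes did in that fit. Among the nuclear members 0, and among all genes 283, had an adjusted p under 0.05 by edgeR's quasi-likelihood test. In the same fit the mitochondrially encoded members had a median fold change of 0.16, with 10 above 0 and 3 below. Of these, 2 (mt-Nd4l and mt-Nd6) had an unadjusted edgeR p under 0.05, and 0 were called. Without I/R 1, 61 of 105 members had an unadjusted p under 0.05, while 13.6% of the 16615 genes tested in that fit did, and 0 members against 169 genes in all were called after adjustment. Atp5mc1 is listed at 4660 bases, yet it deviated by 0.32, -0.20 and -0.53 in I/R libraries and 0.00, -0.06 and 0.47 in sham libraries, close to the medians of the shorter members. Ndufab1, listed at 3479 bases, also deviated, by 0.55, -0.14 and -0.53 in I/R libraries and -0.04, -0.21 and 0.37 in sham libraries.

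**Figure D3:**
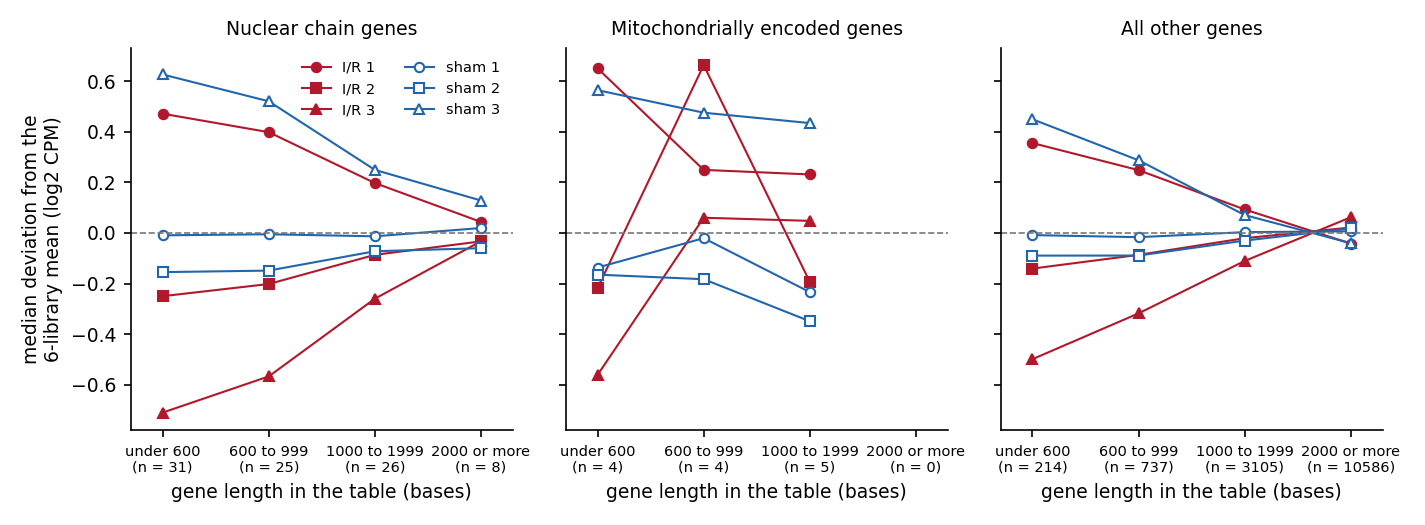
The line plots give the median log2 CPM deviation from the 6-library mean by gene length for nuclear chain genes, mitochondrially encoded genes and all other genes, with 1 line per library (I/R red and filled, sham blue and open). The lines of nuclear chain genes and of other genes fan out toward shorter lengths. Under 2000 bases sham 3 and I/R 1 lie above 0 and I/R 3 is lowest in both panels. The mitochondrially encoded genes rest on 4 or 5 genes per class.

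Complex I, the entry point for electrons from NADH, had 39 nuclear rows tested, with Ndufb4, Ndufb4b and Ndufb4c as separate rows. Of the 39 rows 0 were called, with a median fold change of -0.19 and a range of -0.39 to 0.04. The lowest was Ndufs6, an accessory subunit of the arm that takes up NADH's electrons, with 35.2, 23.7 and 17.4 CPM in I/R libraries against 28.9, 27.5 and 43.6 CPM in sham libraries. I/R 1 lay above 2 of the 3 sham libraries, so the groups overlapped, and the log2 fold change, given here and below ± SE, was -0.39 ± 0.25 (adjusted p = 0.65 by edgeR's quasi-likelihood test). Ndufa5, an accessory subunit of the quinone-binding module, had 33.9, 22.6 and 14.7 CPM in I/R and 25.8, 23.6 and 42.0 CPM in sham libraries. Its highest library was sham 3 and its lowest I/R 3, at -0.36 ± 0.29 on the log2 scale. Ndufb5 of the membrane arm had a log2 fold change of -0.20 ± 0.15. Ndufb8 and Ndufa11, also of the membrane arm and the highest nuclear genes of the complex at 409 and 290 TPM, had -0.17 ± 0.20 and -0.16 ± 0.24. Ndufa10, an accessory subunit, was the 1 of the 39 above 0, at 0.04 ± 0.09.

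The 8 assembly factors had a median of -0.14, and 0 were called. Ndufaf8, which stabilises the methyltransferase-like factor NDUFAF5, had 5.83, 4.89 and 3.38 CPM in I/R and 5.06, 5.85 and 7.15 CPM in sham libraries, a log2 fold change of -0.36 ± 0.22. Ndufaf3, which acts early in building the quinone module, had 20.6, 17.4 and 13 CPM in I/R and 20.4, 18.9 and 20.8 CPM in sham libraries, and its log2 fold change was -0.24 ± 0.16. I/R 1 lay among the sham libraries for both.

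Ndufa4 carries a complex I name but its protein is a subunit of cytochrome c oxidase, and Ndufa4l2 is its paralogue, known as a hypoxia-inducible gene. Ndufa4 had 213, 135 and 102 CPM in I/R and 155, 138 and 232 CPM in sham libraries, with a log2 fold change of -0.22 ± 0.26. Ndufa4l2 had 1.58, 1.16 and 1.41 CPM in I/R and 1.18, 1.85 and 2.57 CPM in sham libraries, with -0.43 ± 0.31. The highest level of Ndufa4 was in sham 3 and the lowest in I/R 3, and for Ndufa4l2 the I/R libraries lay inside or below the sham range, so both overlapped.

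Complex II, succinate dehydrogenase, links the tricarboxylic acid cycle to the chain and had the lowest median standard error among the nuclear groups of the chain, 0.107. Its 4 genes had a median log2 fold change of -0.08, and all 4 intervals stayed within a 1.5-fold change. Sdha, the flavoprotein that oxidises succinate, had 322, 326 and 333 CPM in I/R libraries and 340, 336 and 347 CPM in sham libraries. All I/R levels lay below all sham levels, but by little: the log2 fold change was -0.06 ± 0.08 (adjusted p = 0.838 by edgeR's quasi-likelihood test). Sdhb, the iron-sulfur subunit, had -0.04 ± 0.14. Sdhd, a membrane anchor, had 82.3, 71.2 and 65.6 CPM in I/R and 81.1, 79.4 and 84.7 CPM in sham libraries, with I/R 1 inside the sham range and a log2 fold change of -0.16 ± 0.11.

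Complex III, which passes electrons from ubiquinol to cytochrome c, had 8 nuclear genes tested, 0 called, a median of -0.21 and 2 values above 0, Uqcrc1 and Uqcrfs1, the Rieske iron-sulfur protein at 0.14 ± 0.20. Uqcrb, a small subunit beside cytochrome b, had 40.1, 23.9 and 20.5 CPM in I/R and 29.3, 28.3 and 50.3 CPM in sham libraries, a log2 fold change of -0.35 ± 0.28. Uqcrh, the hinge protein, had 123, 78.5 and 60.6 CPM in I/R and 95.7, 83.8 and 142 CPM in sham libraries, a log2 fold change of -0.30 ± 0.25. Both short genes had their highest level in sham 3 and their lowest in I/R 3. Uqcrc1, a core subunit listed at 1653 bases, had 283, 260 and 233 CPM in I/R and 258, 262 and 245 CPM in sham libraries, with 0.02 ± 0.10.

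ATP synthase had 18 nuclear genes tested, 0 called and a median of -0.22. The 2 long genes of the catalytic head varied little between libraries. Atp5f1a, the alpha subunit, had 845, 874 and 869 CPM in I/R and 887, 864 and 838 CPM in sham libraries, so that its highest library was 1.06 times its lowest, the smallest such ratio among tested members. Its log2 fold change was -0.00086 ± 0.080, with a 95% interval of -0.18 to 0.18. Atp5f1b had 1150, 1060 and 975 CPM in I/R and 1100, 1030 and 1130 CPM in sham libraries, with -0.03 ± 0.09. Atp5f1e, a short gene for the epsilon subunit of the same enzyme, instead spread over 2.81 times, with 48.5, 26.5 and 19.8 CPM in I/R and 40.4, 33.8 and 55.6 CPM in sham libraries. Its log2 fold change was -0.45 ± 0.29 (adjusted p = 0.652 by edgeR's quasi-likelihood test).

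Atp5mc1, Atp5mc2 and Atp5mc3 encode the same c subunit of the rotor with different import sequences. They had log2 fold changes of -0.25 ± 0.21, -0.16 ± 0.19 and -0.21 ± 0.25, and mean levels of 79.7, 35.0 and 629 TPM. Atp5mc3 had 238, 145 and 117 CPM in I/R and 173, 158 and 247 CPM in sham libraries, and Atp5mc2 had 4.94, 7.07 and 5.11 CPM in I/R and 7.07, 5.30 and 6.74 CPM in sham libraries. The groups overlapped for all 3 genes. Atp5if1, the inhibitor that binds ATP synthase when it runs backwards under low oxygen, had 146, 90.4 and 71.2 CPM in I/R and 98.9, 94.9 and 165 CPM in sham libraries. It was highest in sham 3 and I/R 1, and its log2 fold change was -0.22 ± 0.27 (adjusted p = 0.826 by edgeR's quasi-likelihood test).

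Complex IV, cytochrome c oxidase, hands electrons to oxygen, and several of its nuclear subunits exist as a general isoform and a heart and skeletal muscle isoform. Its 12 tested nuclear genes had a median log2 fold change of -0.23, 0 called and 1 value above 0, Cox5a at 0.15 ± 0.26. Among general isoforms, Cox6a1 had 238, 164 and 102 CPM in I/R and 173, 165 and 246 CPM in sham libraries, with -0.21 ± 0.26. Cox7a2 had 96.3, 57.9 and 40.9 CPM in I/R and 76.5, 63.5 and 112 CPM in sham libraries, with -0.37 ± 0.29. Cox8a had 170, 112 and 61.3 CPM in I/R and 122, 104 and 166 CPM in sham libraries, with -0.19 ± 0.31. I/R 1 and sham 3 were high and I/R 3 low for each of them. Cox6b1 had -0.24 ± 0.24, and Cox7a2l, which takes part in joining complexes III and IV into supercomplexes, had -0.02 ± 0.13.

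The heart and muscle isoforms were far lower, with mean levels of 6.23 TPM for Cox7a1 beside 286 for Cox7a2, 3.65 TPM for Cox6a2 beside 805 for Cox6a1, and 1.76 TPM for Cox8b beside 564 for Cox8a. Cox7a1 had 21, 15 and 5 counts in I/R libraries against 34, 26 and 43 counts in sham libraries. All I/R counts lay below all sham counts, the log2 fold change was -1.38 ± 0.44, and the adjusted p was 0.247 by edgeR's quasi-likelihood test. Cox6a2 had 4, 6 and 0 counts in I/R against 58, 6 and 44 in sham libraries, and Cox8b had 1, 0 and 0 counts in I/R against 21, 1 and 7 in sham libraries. Both were high in sham 1 and sham 3 and near 0 elsewhere, and neither passed the filter on low counts.

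The same 2 sham libraries held the muscle transcripts. Over the whole muscle list, 10 of 10 markers had fold changes below 0, 7 had no overlap between groups, and 1, Myl1, had an adjusted p under 0.05 by edgeR's quasi-likelihood test, against 10 by DESeq2 and 0 by limma-voom. Over all genes, 17.1% had no overlap between groups and 1.15% had an adjusted edgeR p under 0.05. Myl1 had 0 counts in I/R 1, and Myh4, a fast myosin, had 0.642, 3.73 and 2.05 CPM in I/R against 89.3, 5.2 and 39.5 CPM in sham libraries. Sham 2, with muscle markers summing to 16.2 CPM, had 6 counts of Cox6a2 and 1 of Cox8b, no more than the highest I/R library, but 26 counts of Cox7a1, above the highest I/R library at 21. With each library's muscle level as a covariate, Cox7a1 had a log2 fold change of -1.03 and an adjusted p of 1.00 by edgeR's quasi-likelihood test. Every sham library had a higher muscle level than every I/R library, so this covariate fit cannot separate muscle level from group. Without a filter on low counts, 1.68% of 29449 genes were called, and Cox6a2, Cox8b and Cox7a1 were among them, with log2 fold changes of -3.45, -4.47 and -1.39 and adjusted p of 7.56e-05, 0.0115 and 0.0337 by edgeR's quasi-likelihood test. Cox6a2 also passed when sham 2 was left out, with an adjusted p of 0.0123, in a fit that called 1.09% of 16668 genes.

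Isoforms known from testis were low in all libraries. Cox6b2 had 19, 9 and 15 counts in I/R and 18, 26 and 23 counts in sham libraries, with I/R 1 inside the sham range and a log2 fold change of -0.71 ± 0.35 (adjusted p = 0.527 by edgeR's quasi-likelihood test). Cox7b2 had at most 2 counts in a library, and Cox8c was at 0 in all 6 libraries, which allows up to 3 counts, or 0.137 to 0.154 CPM, in each.

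**Figure D4:**
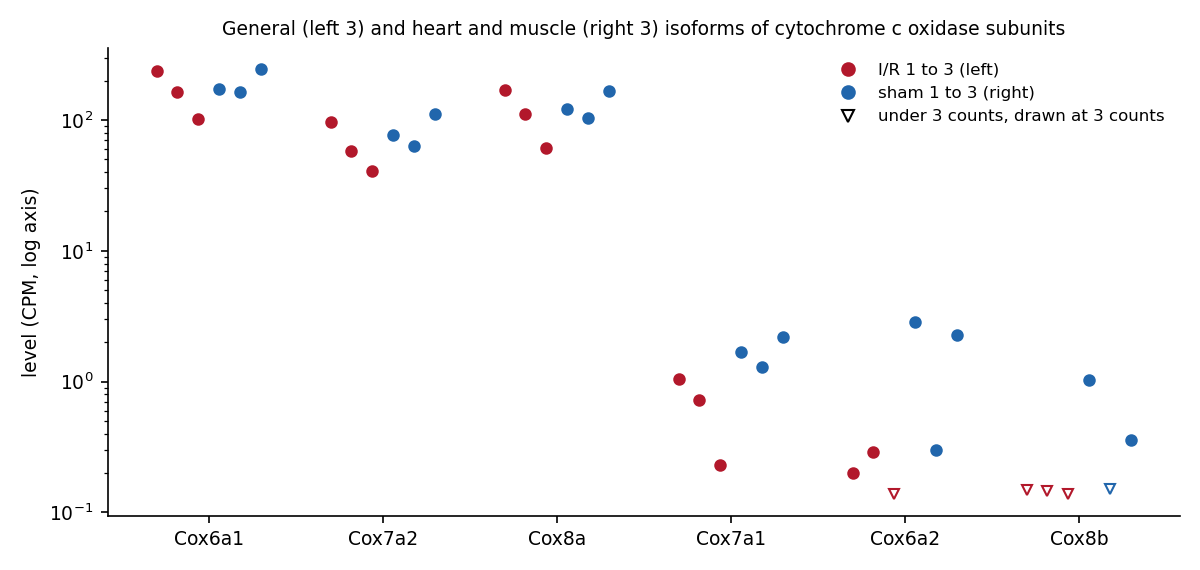
The plot of oxidase isoforms shows CPM on a log axis for each library, with I/R in red on the left and sham in blue on the right of each gene, and open triangles for values under 3 counts, drawn at 3 counts. The general isoforms Cox6a1, Cox7a2 and Cox8a sit between 40.9 and 246 CPM in both groups, while Cox6a2 and Cox8b have their highest points, 0.36 to 2.85 CPM, in sham 1 and sham 3.

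The mitochondrially encoded genes cannot all be read from their own rows, because nuclear DNA carries near-identical copies of several of them. A search of the GENCODE M21 transcripts found 7 unprocessed pseudogenes that match a mitochondrial gene at 99% identity or more over at least 90% of their length. In the GRCm38 annotation they lie side by side on the minus strand of chromosome 1, between bases 24611535 and 24616197, and their table rows are Gm28439, Gm10222, Gm28438, Gm28437, Gm10925, Gm28661 and Gm29216. Gm28437 is identical to the gene of mt-Co3 over all 783 of its bases, so a read from one fits the other, while Gm28438 and mt-Nd3 differ at 1 base in 345. The first 90 bases of both pairs are shown to let this be seen, with the differing base in capitals; it is T3C, counted from the first base of the mt-Nd3 transcript.
mt-Co3: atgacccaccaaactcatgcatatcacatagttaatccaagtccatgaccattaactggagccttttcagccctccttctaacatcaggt
Gm28437: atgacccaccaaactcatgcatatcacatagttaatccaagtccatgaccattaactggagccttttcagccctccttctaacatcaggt
mt-Nd3: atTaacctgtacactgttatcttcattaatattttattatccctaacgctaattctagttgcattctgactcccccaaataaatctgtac
Gm28438: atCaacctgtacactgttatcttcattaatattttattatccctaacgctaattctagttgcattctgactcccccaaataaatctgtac

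In the deposited table most counts of 5 of these loci stood on the nuclear copy. The row of mt-Co3, a core subunit of cytochrome c oxidase, held 2.01%, 10.5% and 2.99% of the counts of gene and copy together in I/R libraries and 4.89%, 1.95% and 0.999% in sham libraries. The row of mt-Co2, which carries the copper site that receives electrons from cytochrome c, held 0.316%, 2.22% and 0.526% in I/R and 0, 1.24% and 0.302% in sham libraries. The share on the gene's own row was highest in I/R 2 for both genes. For mt-Atp6, the proton channel subunit, it was 5.48%, 12.8% and 16.7% in I/R and 17.3%, 16.5% and 12% in sham libraries, lowest in I/R 1. For mt-Nd3 it was 7.09% to 17.8% in I/R and 14.0% to 15.0% in sham libraries, and for mt-Nd4l 9.45% to 13% in I/R and 7.92% to 10.3% in sham libraries. The row of mt-Co1 held 97.6% to 100% of its locus in I/R and 97.9% to 99.4% in sham libraries, and Gm29216, its copy, covers 492 bases. Gm28439, the copy of mt-Nd4, was at 0 in every library.

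Fold changes of several of these rows differed with and without the copy. On its own row mt-Co3 had 55.6, 165 and 49.6 CPM in I/R and 81.7, 29.2 and 27.2 CPM in sham libraries, with a log2 fold change of 0.97 ± 0.51 (adjusted p = 0.56 by edgeR's quasi-likelihood test) that was 0.17 without I/R 2. Together with Gm28437 it had 2762, 1574 and 1659 CPM in I/R and 1671, 1492 and 2715 CPM in sham libraries, and the log2 fold change was 0.03 ± 0.25. The mt-Co2 row had 7.61, 30.5 and 6.80 CPM in I/R and 0, 15.5 and 7.30 CPM in sham libraries, with 0.98 ± 0.91, and with Gm28661 it had 2413, 1372 and 1291 CPM in I/R and 1365, 1248 and 2415 CPM in sham libraries, with 0.01 ± 0.28. For mt-Atp6 the value was -0.39 ± 0.20 on its own row and 0.08 ± 0.26 with Gm10925. Summed with their copies, I/R 1 and sham 3 were again the high libraries and the groups overlapped for each of the 3 genes. Without a filter on low counts and with the copy left apart, the mt-Co3 row had an adjusted p of 0.045 by edgeR's quasi-likelihood test, and a fit without the filter was not run with the copy summed.

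With copies summed, the 13 mitochondrially encoded genes had a median log2 fold change of 0.03, a range of -0.24 to 0.29, 0 called and 0 with an unadjusted p under 0.05 by edgeR. The summed CPM of the 13 genes and their copies was 19056, 12440 and 14389 in I/R libraries and 12209, 11019 and 19296 in sham libraries, and its ratio to the nuclear sum was 1.90, 1.61 and 2.17 in I/R and 1.45, 1.41 and 1.88 in sham libraries. The difference in mean log2 ratio was then 0.26, with sham 3 again inside the I/R range.

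**Figure D5:**
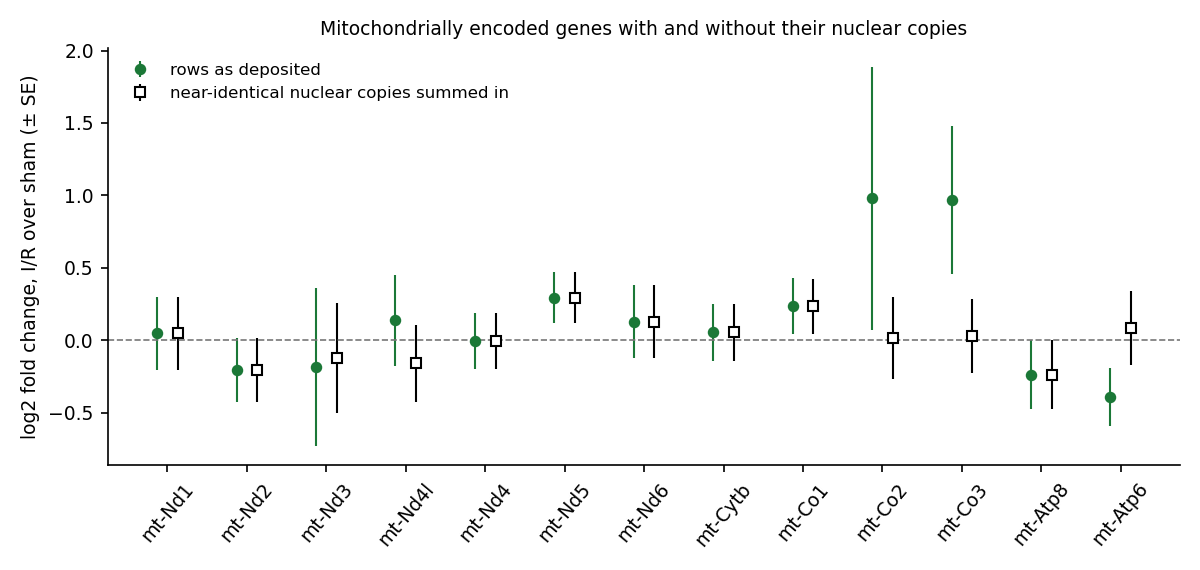
The plot of mitochondrially encoded genes shows the log2 fold change of I/R over sham with its SE, from the rows as deposited (green points) and with the near-identical nuclear copies summed in (open squares). The points of mt-Co2 and mt-Co3 near 1 move to about 0 with their copies, and the genes without a copy keep their values.

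The mitochondrially encoded core subunits of complex I include long rows that no copy of this kind touches. The row of mt-Nd1 had 1230, 723 and 800 CPM in I/R and 727, 682 and 1260 CPM in sham libraries, with a log2 fold change of 0.05 ± 0.25, and mt-Nd2 had -0.20 ± 0.22. The highest fold change among these rows was that of mt-Nd5, with 856, 805 and 1130 CPM in I/R and 667, 633 and 973 CPM in sham libraries. Sham 3 lay between I/R 1 and I/R 3, and the log2 fold change was 0.29 ± 0.18 (adjusted p = 0.629 by edgeR's quasi-likelihood test). mt-Nd4, whose copy was at 0, with 976, 723 and 870 CPM in I/R and 758, 661 and 1160 CPM in sham libraries, had -0.0041 ± 0.19. mt-Nd3 and mt-Nd4l, both short rows with copies, had -0.18 ± 0.55 and 0.14 ± 0.31 as deposited, and -0.12 ± 0.38 and -0.16 ± 0.27 with the copies summed. mt-Nd4l shares 7 bases with mt-Nd4.

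The only mitochondrially encoded subunit on the opposite strand is mt-Nd6, which overlaps mt-Nd5 by 14 bases at its end. It had 138, 87.2 and 101 CPM in I/R and 81.8, 72.2 and 145 CPM in sham libraries, with 0.13 ± 0.25 on the log2 scale. The strand setting of the counting is not given in the sources used here, so reads in that overlap may be shared between the genes.

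Cytochrome b, mt-Cytb, is the mitochondrially encoded subunit of complex III and had 1650, 1160 and 1340 CPM in I/R and 1130, 1060 and 1800 CPM in sham libraries. The I/R libraries lay within the sham range, and the log2 fold change was 0.06 ± 0.20. mt-Co1, the oxygen-reducing subunit of complex IV, had 6670, 4600 and 5870 CPM in I/R and 4340, 3800 and 6410 CPM in sham libraries, with 0.24 ± 0.19 (adjusted p = 0.728 by edgeR's quasi-likelihood test) and sham 3 inside the I/R range. mt-Atp8, a small subunit of ATP synthase whose row shares 43 bases with mt-Atp6, had 97.2, 72.3 and 53.8 CPM in I/R and 72.0, 72.1 and 119 CPM in sham libraries, with -0.24 ± 0.24. It is the shortest of the 13 at 204 bases, and like the short nuclear genes it was highest in sham 3 and I/R 1 and lowest in I/R 3.

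Genes that work with the chain were taken from lists chosen with earlier results of these data known, and 0 of their tested members were called by edgeR, DESeq2 or limma-voom. Of the 5 subunits and carriers outside the name pattern, Cox4i2, a lung and hypoxia isoform, had -0.78 ± 0.39 and Cycs, cytochrome c, -0.30 ± 0.20, with a list median of -0.10 and 0 with an unadjusted edgeR p under 0.05. Of the 41 assembly factors tested outside the pattern, 32 were below 0 with a median of -0.12. In this list 3 genes (Bcs1l, Nubpl and Sco2) had an unadjusted edgeR p under 0.05, while 10.5% of all genes did. The groups did not overlap for 1 gene higher and 5 lower in I/R, while 17.1% of all genes were separated in this way. Bcs1l, which inserts the Rieske protein into complex III, had 9.19, 9.15 and 9.95 CPM in I/R and 12.3, 11.4 and 12.4 CPM in sham libraries. All I/R levels lay below all sham levels, at a log2 fold change of -0.35 ± 0.12 (adjusted p = 0.272 by edgeR's quasi-likelihood test). Sco2, a copper chaperone of cytochrome c oxidase, had -0.38 ± 0.15.

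The 27 genes of mitochondrial DNA transcription, replication and RNA handling had a median of -0.01 and 0 with an unadjusted p under 0.05, and the 2 with the smallest p were Fastkd2, an RNA-binding protein of mitochondrial ribosomes, at -0.27 ± 0.13 and Tefm, the elongation factor, at -0.35 ± 0.18. The 11 nuclear regulators had a median of 0.07. Ppargc1a, the coactivator known for raising mitochondrial gene programs, had 19.0, 21.9 and 23.8 CPM in I/R and 16.9, 17.2 and 16.9 CPM in sham libraries. Its I/R levels all lay above its sham levels, at 0.34 ± 0.12, but the adjusted p was 0.291 by edgeR's quasi-likelihood test. Yy1 had 0.13 ± 0.09.

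The fuel pathways were close to 0, with 0 genes of the next 3 lists at an unadjusted edgeR p under 0.05. The 17 genes of pyruvate dehydrogenase and the tricarboxylic acid cycle had a median of -0.0042, with Suclg2 at -0.31 ± 0.14 and Idh3a at -0.11 ± 0.09. The 18 glycolysis rows had a median of 0.02, and Ldha, lactate dehydrogenase A, had 416, 400 and 389 CPM in I/R and 450, 444 and 449 CPM in sham libraries, with -0.16 ± 0.08. Its groups did not overlap, and its adjusted p was 0.554 by edgeR's quasi-likelihood test. Pfkl had -0.19 ± 0.11. The 11 carriers and channels had a median of -0.01, with Slc25a13 at -0.44 ± 0.20 and the ADP/ATP carrier Slc25a5 at -0.17 ± 0.11. The 11 tested genes of mitochondrial chaperones, proteases and stress response had a median of -0.01 and 2 with an unadjusted p under 0.05, the pseudokinase Trib3 at 0.57 ± 0.20 (adjusted p = 0.307 by edgeR's quasi-likelihood test) and the chaperonin Hspd1 at -0.22 ± 0.09. Over all genes, 10.5% had an unadjusted edgeR p under 0.05.

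Nuclear respiratory genes are known to share binding motifs for NRF1, ETS factors such as GABP, YY1 and ERR receptors in their promoters. RefSeq promoter windows (GRCm38.p6, 250 bases before to 50 after the gene start) were matched for 80 of the 100 nuclear rows. Exact letters were searched on both strands. A gene with several windows was counted once, with a match in any of them. The NRF1 letters GCGCATGCG were found for 10 of the 80 genes (12.5%) and for 1.95% of all 27025 genes. The YY1 letters AAGATGGCG were in 8 of the 80 and in 1.64% of all, the ETS letters CCGGAAGT in 5 (6.25%) and in 4.31%, and the ERR letters TCAAGGTCA in 2 (2.5%) and in 0.466%. The NRF1 letters overlap their own reverse complement, so 1 stretch can match on both strands. The YY1 match began after the gene start in 7 of its 8 windows, and the NRF1 match in 2 of its 10.

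A window is shown for each motif, from genes described above, as an example of an exact match, with the matched letters in capitals. Whether these stretches regulate the genes was not tested. They are Cox6a1 with NRF1 (chr5:115348909-115349208, minus strand), Ndufs6 with YY1 (chr13:73328433-73328732, minus strand), Cox8a with 2 ETS matches (chr19:7217567-7217866, minus strand) and Sdhd with ERR (chr9:50603800-50604099, minus strand), each written in the direction of the gene.
Cox6a1: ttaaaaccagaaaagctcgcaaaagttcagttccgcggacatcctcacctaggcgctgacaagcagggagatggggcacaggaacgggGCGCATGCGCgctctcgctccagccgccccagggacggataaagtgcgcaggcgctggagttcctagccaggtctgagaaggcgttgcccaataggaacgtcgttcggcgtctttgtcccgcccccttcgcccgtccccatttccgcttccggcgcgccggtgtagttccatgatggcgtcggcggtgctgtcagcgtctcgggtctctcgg
Ndufs6: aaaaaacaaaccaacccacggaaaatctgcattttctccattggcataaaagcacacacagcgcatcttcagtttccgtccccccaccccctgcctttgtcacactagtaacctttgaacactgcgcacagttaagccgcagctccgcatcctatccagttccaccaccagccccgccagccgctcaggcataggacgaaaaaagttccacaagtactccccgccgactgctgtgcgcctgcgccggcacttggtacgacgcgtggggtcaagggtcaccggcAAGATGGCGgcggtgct
Cox8a: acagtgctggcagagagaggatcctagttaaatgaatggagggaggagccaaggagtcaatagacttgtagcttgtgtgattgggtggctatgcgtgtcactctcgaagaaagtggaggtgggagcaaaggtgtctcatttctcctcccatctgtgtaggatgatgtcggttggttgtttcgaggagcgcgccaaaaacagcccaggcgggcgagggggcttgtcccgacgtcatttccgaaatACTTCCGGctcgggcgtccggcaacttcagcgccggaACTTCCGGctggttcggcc
Sdhd: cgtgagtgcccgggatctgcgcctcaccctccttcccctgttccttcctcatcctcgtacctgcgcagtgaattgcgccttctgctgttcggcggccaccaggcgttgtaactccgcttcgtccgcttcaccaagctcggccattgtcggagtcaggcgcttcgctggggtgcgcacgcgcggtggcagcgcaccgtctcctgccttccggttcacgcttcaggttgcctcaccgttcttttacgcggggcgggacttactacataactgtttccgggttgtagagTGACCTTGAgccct
A match is a description of letters and not of binding, and these 4 genes had log2 fold changes of -0.21, -0.39, -0.19 and -0.16, none of which passed the test.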

How the data were processed

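Ganglia of 6 mice were measured by RNA-seq, with 1 library per mouse, from a stranded Illumina mRNA kit per the labels' protocols. Per the submitters' processing notes, HISAT2, StringTie, fastp and the assembly GRCm39 were used, in roles that are not stated. Which program counted reads, with which strand setting and annotation, is not given in the sources used here. Expected counts per gene, unscaled, are what the authors deposited, in which 10.7% to 11.5% of the values of a library were not whole. The design had assumed whole counts, so the expected counts were rounded and the same test kept.

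Tests across genes used edgeR 4.0.16 under R 4.3.3 and its quasi-likelihood F-test (TMM, default filter on low counts, trended dispersion, Benjamini-Hochberg adjustment over 16346 genes). The biological coefficient of variation was 13.2%. A called gene has an adjusted p under 0.05. CPM uses TMM-scaled totals. TPM was computed from the counts and the deposited gene lengths. The 3 mice of a group are separate animals. No pair of libraries of 1 group agreed within sampling noise (chi-square per degree of freedom 4.11 to 30.5). A count of 0 allows up to 3 counts, for counting error only. The script was tested on simulated data.

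The members and lists were chosen with earlier results of these data known. The genes named are the 13 mitochondrially encoded members, the 12 nuclear members of smallest p, the 2 highest by TPM in each complex, isoforms of 1 subunit, Atp5if1, and the 2 of smallest p per pathway list. Ndufa10, Ndufab1, Ndufaf6, Uqcrfs1, Cox5a, Nubpl, Myh4, Myl1, Fabp4 and the satellite glia markers were chosen after their values were seen. Alternatives were RLE and upper-quartile scaling, DESeq2 1.42.0, limma-voom (limma 3.58.1), no filter, a CPM of at least 1 in 3 libraries, mitochondrial genes left out of library sizes, the muscle level as a covariate, a replicate block and each library left out. Summing the nuclear copies and removing a loess trend (span 0.3) on gene length were added after seeing the data. The authors' columns of group means were not used. The reference genome at hand, GRCm38, is another assembly than GRCm39, so its coordinates are used for annotation and promoter windows only.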

Additional observations from a re-analysis of the deposited data

How the results depend on the processing

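The 0 calls among nuclear members held under every alternative run except 2: without a filter on low counts there were 3 (Cox6a2, Cox7a1 and Cox8b), and leaving out a library gave 0 to 1 (Cox6a2 without sham 2). Without a filter 1 mitochondrially encoded gene (mt-Co3) was called. Calls among all genes, 188 as reported, were 312 with DESeq2, 283 with the length trend removed, 28 with the muscle level as a covariate, 494 without a filter, 63 with a replicate block, and 87 to 181 with a library left out. Same-numbered libraries did not deviate together (correlations of -0.11, 0.14 and -0.12), so the replicate numbers were not taken to pair the mice, and with the replicate block 0 members were called. The median of nuclear members was -0.23 with the replicate block. Leaving out a library gave medians of -0.51 to -0.0048 for nuclear and -0.11 to 0.33 for mitochondrially encoded members. Of 713 fold changes of 42 named members under 17 alternatives, 649 stayed within 1 SE, 60 changed sign and 2 were called. The causes of these changes were not tested. With 3 mice a group, 31 of the 91 nuclear members had an interval narrow enough to stay within a 1.5-fold change.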
